A study of Homo sapiens with 9 samples.

Results

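The ubiquitin-specific proteases, or USP genes, form the largest family of human deubiquitinases, the enzymes that take ubiquitin off proteins. Ubiquitin is attached by E1, E2 and E3 enzymes and can mark a protein for the proteasome, for endocytosis or for assembly into signalling complexes. A USP enzyme undoes that mark with a cysteine protease domain, and family members differ in substrate, in partner proteins and in the place in the cell where they act. Substrates of this family include growth factor receptors on endosomes, components of TGF-beta and Wnt signalling and histones. Members were taken by symbol: USP followed by digits only, plus USP9X and USP27X. This rule found 49 genes among 37196 with a count in at least 1 library, and 47 of them were among the 19426 genes that passed the low-count filter. The remaining 2, USP26 and USP44, were at 0.102 and 0.137 CPM or less in every library and were not tested.

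RNA was sequenced from hTERT-MSC, an adipose-derived human mesenchymal stem cell line kept dividing by telomerase. The 3 groups, with 3 libraries each, were pseudopodia, cell bodies and whole cells, and all of them carry the same treatment of PDGF-BB, which attracts mesenchymal cells, at 50 ng/mL for 1 h. No untreated group was analysed here. Starved cells sat for 2 h on a membrane with 3 µm pores before the growth factor was placed below it. Pseudopodia were the processes scraped from the lower face of the membrane, and cell bodies were what was then scraped from the upper face. How whole cells were collected is not described separately. One line was used throughout, and the labels do not say whether replicates were grown separately. The p-values therefore measure only how far these samples differ from each other, and that spread may be technical. CPM below are counts relative to the library total, scaled with TMM factors, and are used between libraries. TPM also take gene length into account and are used between genes.

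Library totals ran from 55469030 to 83894938 counts. The biological coefficient of variation was 32.96% among pseudopodia, 17.6% among cell bodies and 5.08% among whole cells. Of 7 mesenchymal markers, 0 were at 0, and they summed to 19046 to 23726 CPM in pseudopodia, 30322 to 36156 CPM in cell bodies and 29852 to 30940 CPM in whole cells. The 5 haematopoietic markers summed to at most 83.5 CPM, the 5 endothelial ones to at most 106.6 CPM and the 5 adipocyte ones to at most 1.25 CPM in any library. The 5 epithelial markers summed to 254.8 to 366.2 CPM in pseudopodia, 253.9 to 290.9 CPM in cell bodies and 145.7 to 159.8 CPM in whole cells, with KRT8 and KRT18 called higher in both fractions than in whole cells and 3 of the 5 under 1 CPM. Their part in the results against whole cells was not tested. The 5 mRNAs known from protrusions summed to 9918 to 10490 CPM in pseudopodia, 468.7 to 578.6 CPM in cell bodies and 689.5 to 733.5 CPM in whole cells.

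Among the pseudopodia libraries, replicate 2 stood apart for USP mRNAs of low GC content. Across the 47 members, the log2 CPM of replicate 2 minus the mean of replicates 1 and 3 fell with the GC content of the longest transcript, with Pearson r = -0.84 and Spearman rho = -0.91. Over the 18675 tested genes with a GC value, r was -0.61 and rho was -0.67. USP16 was 4.83 times higher in replicate 2 than in the higher of the other libraries of its group, USP15 was 3.04 times and USP53 2.73 times higher. For USP7, with a GC content of 45.7%, this ratio was 0.940. Genes share each library, so these are descriptions. The part of base composition in the results below was not tested beyond the values given.

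**Figure D1:**
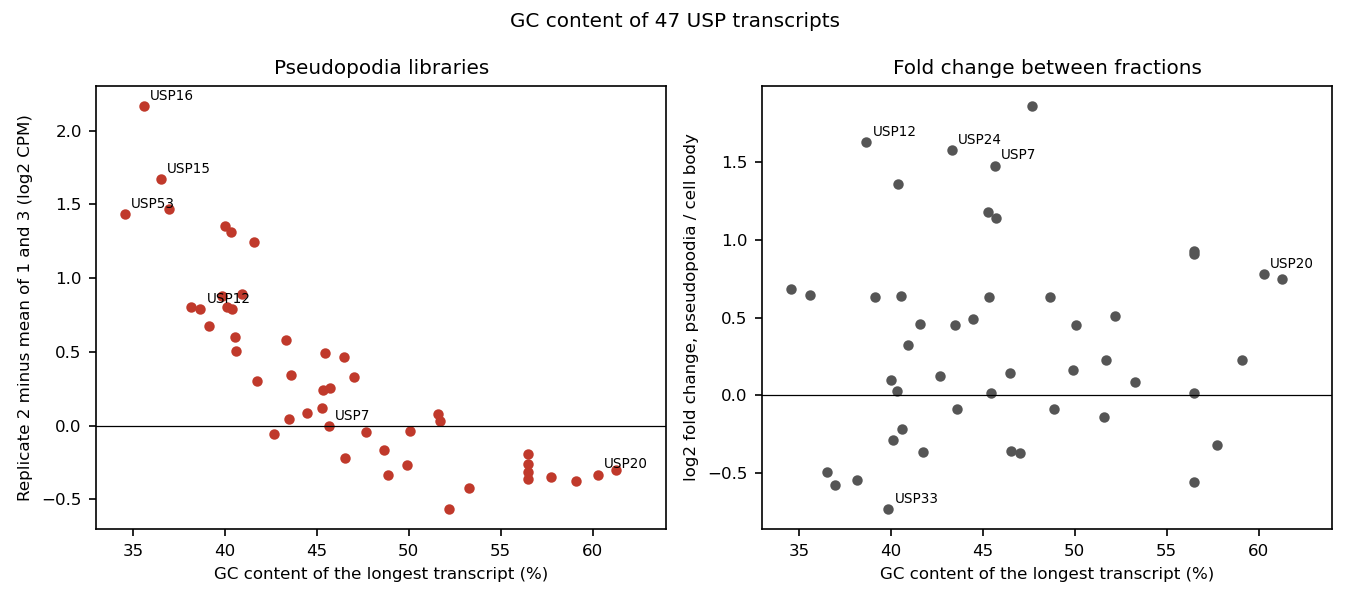
GC content of the longest transcript (%) of the 47 USP genes against pseudopodia replicate 2 minus the mean of replicates 1 and 3 (log2 CPM, left) and against the log2 fold change of pseudopodia over cell bodies (right), with 1 point per gene. The left points fall from USP16 and USP15 on the GC-poor side to below 0 on the GC-rich side (r = -0.84), and the right points show no such slope (r = 0.06).

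By TPM over all 9 libraries, USP22, USP12, USP5, USP7 and USP11 stood highest in the family, with means of 127.5, 97.7, 77.6, 76.1 and 75.2 TPM. USP22, the deubiquitinase of the SAGA chromatin complex, had 116, 100.2 and 138 TPM in pseudopodia, 104, 154 and 152 TPM in cell bodies and 142, 104 and 137 TPM in whole cells. Its 3 groups overlapped. USP12 had 171, 275 and 131 TPM in pseudopodia, 70.4, 75.8 and 78.4 TPM in cell bodies and 28.03, 24.5 and 25.2 TPM in whole cells, so it stood above USP22 in pseudopodia replicates 1 and 2, slightly below it in replicate 3 and far below it in every whole-cell library. USP5, which takes apart free ubiquitin chains, averaged 58.6 ± 9.32 TPM in pseudopodia, 89.6 ± 7.54 TPM in cell bodies and 84.6 ± 1.26 TPM in whole cells (SD, n = 3 each). The lowest tested levels belonged to USP6 and USP51, with means over all libraries of 0.0615 and 0.111 TPM. All members together took 0.278% ± 0.0374 of counts in pseudopodia, 0.194% ± 0.0102 in cell bodies and 0.216% ± 0.00686 in whole cells (SD, n = 3 each), and the ranges of pseudopodia and cell bodies did not overlap.

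Pseudopodia were compared with cell bodies to see which USP mRNAs differ between protrusion and soma. USP mRNAs were more often higher than lower: 16 of 47 members (34.0%) were higher in pseudopodia and 1 (2.13%) was lower, where 18.6% of all tested genes were higher and 19.9% were lower. The 16 were USP6, USP12, USP24, USP7, USP34, USP31, USP32, USP36, USP2, USP20, USP35, USP9X, USP49, USP40, USP21 and USP13, and the lower one was USP33. The first 7 of these were at least 2-fold higher, against 8.7% of all tested genes, and 0 members were at least 2-fold lower by edgeR, against 12.3%. The count of members at least 2-fold lower was also 0 at an unadjusted p under 0.05, with DESeq2 and with limma-voom. It was not 0 in every alternative. Without pseudopodia replicate 2, edgeR called USP15 (-1.35, adjusted p = 0.00125) and USP45 (-1.29, adjusted p = 0.00254) lower by more than 2-fold. USP33 reached -1.07 with 1 library left out. The median log2 fold change was 0.23 over the members and -0.05 over all tested genes. Libraries of the 2 fractions did not overlap for 16 members that were above and 4 that were below, with backgrounds of 22.6% and 24.5%. These are shares of the RNA in each fraction: in such bulk samples, more copies per cell, more cells and less of other RNA cannot be told apart.

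Of the 16 higher members, 11 passed in each of the 20 alternatives run: USP2, USP7, USP12, USP20, USP24, USP31, USP32, USP34, USP35, USP36 and USP40. With 1 library left out, USP9X lost its call without pseudopodia replicate 1 or 2 or cell body replicate 1 or 3 (highest adjusted p = 0.0842), USP13 without cell body replicate 2 (0.0579), and USP21 without any of 7 of the 9 libraries (0.117). Under other settings USP9X, USP13, USP21 and USP49 lost their calls with only the 6 libraries compared (adjusted p = 0.0679 to 0.129) and on both TPM scales (highest adjusted p = 0.295). USP9X also lost it with 5 CPM required in 3 libraries (0.06), USP21 with the replicate number as a block (0.0605) and USP6 on log2(TPM + 1) (0.13). USP49 and USP6 were not tested with 5 CPM required in 3 libraries. The single lower call, USP33, was lost without any of 7 libraries (highest adjusted p = 0.114), and also with no low-count filter, 5 CPM in 3 libraries or only the 6 libraries compared (adjusted p = 0.0593 to 0.119). Without pseudopodia replicate 2 the family counts were 15 higher and 5 lower. On log2(TPM + 1), where the median of all tested genes shifted to -0.17, they were 11 and 7.

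Some members without a call between the fractions gained one in an alternative. Limma-voom called USP42, USP3 and USP10 higher and USP45, USP27X, USP15, USP30, USP5 and USP14 lower (highest adjusted p = 0.0182). On both TPM scales USP4, USP27X, USP30, USP5, USP14 and USP18 were lower (highest adjusted p = 0.0377), and with 5 CPM required in 3 libraries USP30 and USP5 were. With the GC and length correction USP1, USP37, USP53 and USP16 were higher (adjusted p = 0.0121 to 0.0414) and USP5 was lower (0.00769). Without pseudopodia replicate 2 the lower calls gained were USP45, USP15, USP14 and USP16. Without pseudopodia replicate 3, USP42 and USP10 were higher and USP30 and USP5 lower. USP16 was thus called in both directions, at 1.01 with the correction and at -0.57 without replicate 2.

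**Figure D2:**
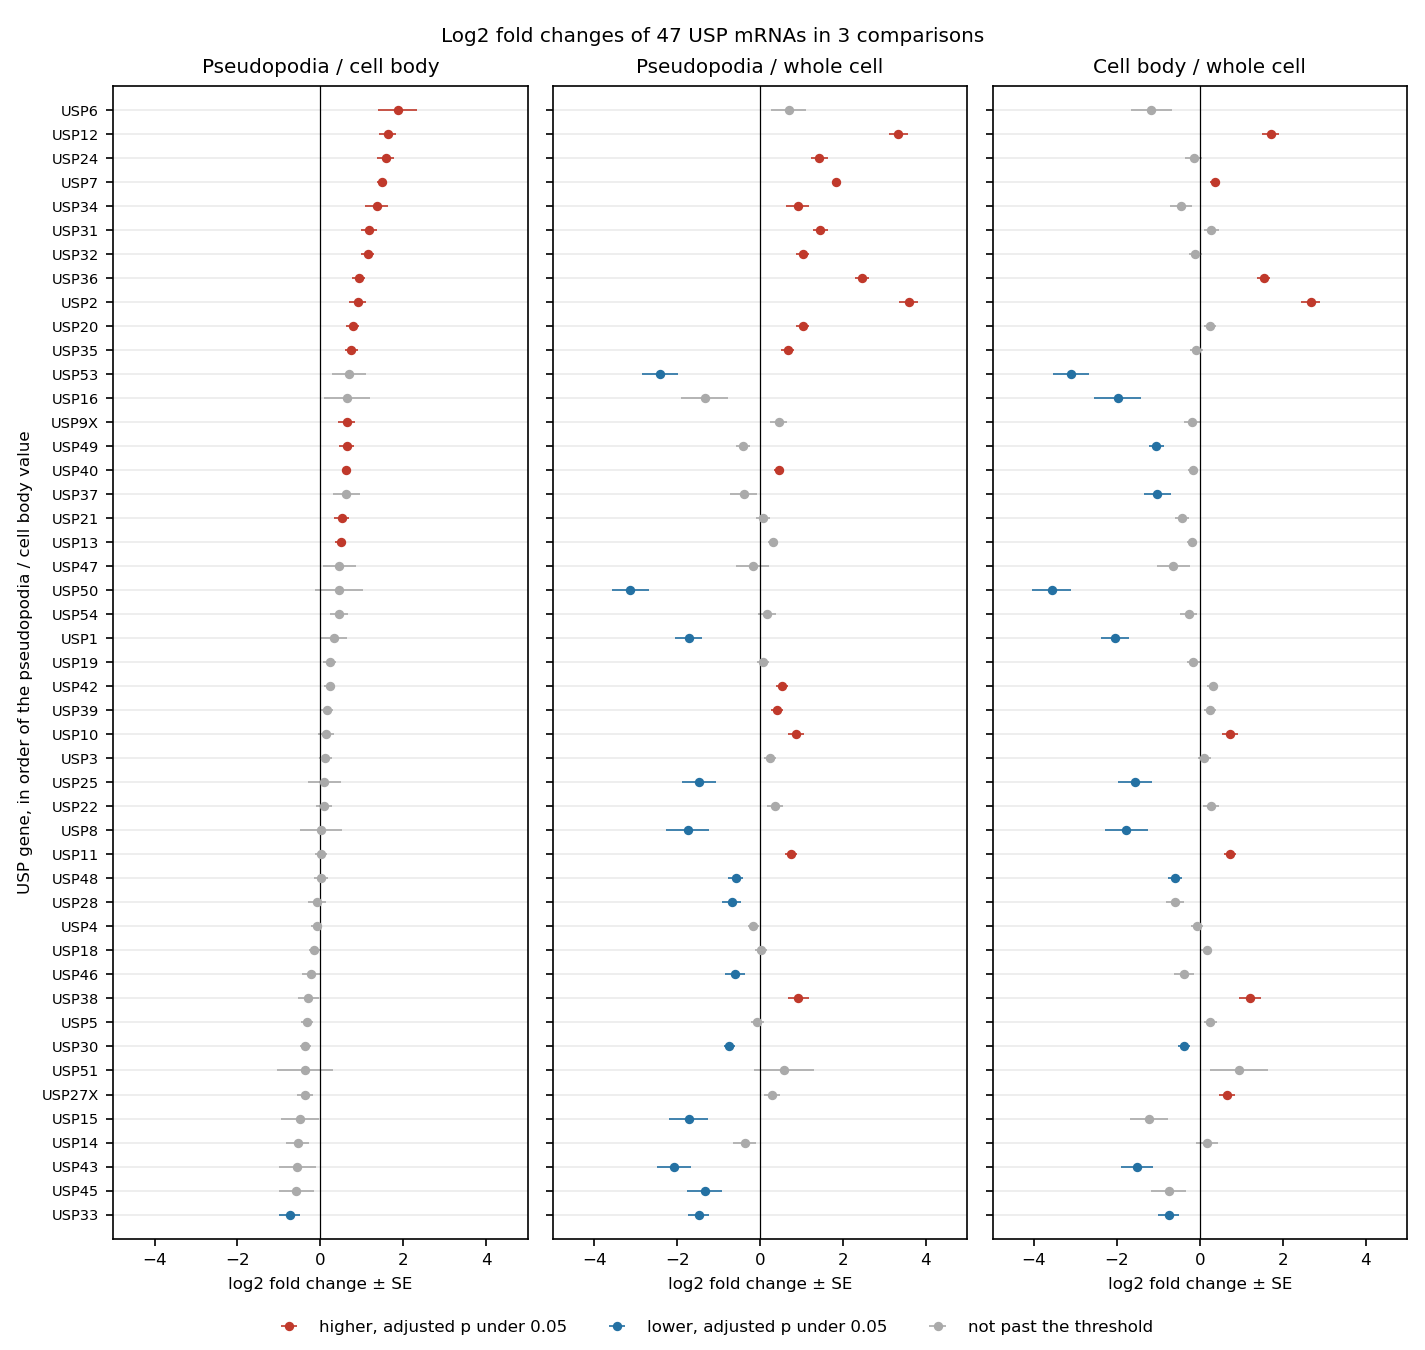
Log2 fold change ± SE of the 47 tested USP mRNAs for pseudopodia over cell bodies, pseudopodia over whole cells and cell bodies over whole cells, from edgeR; red and blue points passed an adjusted p of 0.05 and grey points did not. In the left panel 16 points are red and 1 is blue, while the other panels have 13 and 12 blue points, with USP50, USP53 and USP1 among the lowest.

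Both fractions were also compared with whole cells, and these comparisons share their whole-cell libraries. In pseudopodia against whole cells, 16 of 47 members (34.0%) were higher and 13 (27.7%) were lower, where 27.9% and 33.1% of all tested genes passed in these directions. In cell bodies against whole cells, 8 members (17.0%) were higher and 12 (25.5%) were lower, against 18.1% and 20.5%. These shares lie close to those of all genes. The median log2 fold change over the members was 0.18 for pseudopodia and -0.17 for cell bodies, and over all tested genes it was -0.12 and -0.06. On log2(TPM + 1) the counts were 8 higher and 22 lower for pseudopodia, with the median of all tested genes at -0.34. For cell bodies they were 5 and 16, with that median at -0.15.

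The calls lost against whole cells differed by setting, besides those lost with 1 library left out, which are given beside each member. On both TPM scales pseudopodia lost the higher calls of USP10, USP11, USP34, USP35, USP38, USP39, USP40 and USP42 (adjusted p = 0.0808 or more), and USP11 gave 0.26 there. Cell bodies lost those of USP7, USP10 and USP27X (adjusted p = 0.0718 to 0.122). With no low-count filter the lower calls of USP8, USP15, USP25 and USP45 were lost in pseudopodia (adjusted p = 0.0652 to 0.116) and those of USP8, USP16, USP25, USP30 and USP33 in cell bodies (0.0775 to 0.236). The GC and length correction ended the lower calls of USP28, USP45 and USP46 in pseudopodia (0.117 to 0.73) and of USP37 in cell bodies (0.142). With only the 6 libraries compared, USP28, USP45 and USP46 were again not called in pseudopodia (0.0609 to 0.102). The replicate block ended the calls of USP46 in pseudopodia (0.0508) and of USP7 and USP30 in cell bodies (0.0528 and 0.0878). Block and correction together ended the higher calls of USP35 and USP42 in pseudopodia (highest adjusted p = 0.0655). They also ended the lower calls of USP28, USP45 and USP46 in pseudopodia (0.108 to 0.771) and of USP30, USP33 and USP37 in cell bodies (0.0604 to 0.159). USP39 was lost with 5 CPM required in 3 libraries (0.0553), and with DESeq2 size factors USP46 in pseudopodia (0.053) and USP30 in cell bodies (0.0623; 0.0686 with DESeq2). Calls were gained too: limma-voom added 5 higher and 6 lower in pseudopodia and 6 and 5 in cell bodies, and the GC and length correction 5 and 2 in pseudopodia and 4 and 4 in cell bodies. With that correction USP9X gave 1.06 in pseudopodia over whole cells (adjusted p = 9.95e-07).

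A whole-cell level need not fall between the levels of the 2 fractions in these libraries. Its mean CPM was below both fractions for 16 members (34.0%), above both for 18 (38.3%) and between them for 13 (27.7%). Over all tested genes these shares were 33.9%, 41.0% and 25.2%. By order of mean CPM, 12 members ran pseudopodia, cell body, whole cell from high to low and 8 ran the opposite way. The large separations from whole cells described below are thus differences between kinds of sample, and collection and group cannot be told apart.

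Among members linked to endosomes, receptors and membrane traffic, 5 of 8 tested members were higher in pseudopodia than in cell bodies, against 18.6% of all tested genes. The groups by function used here and below were set with earlier results known. Their counts are therefore no result about those functions. Of the 5, USP12, USP32 and USP2 were called in every alternative, USP9X in 12 of 20 and USP6 in 18 of 19. USP12 and USP46 are close relatives that are switched on by the WD-repeat proteins WDR48 and WDR20. USP12 had 255, 396 and 206 CPM in pseudopodia, 86.9, 94.8 and 94.98 CPM in cell bodies and 29.8, 27.1 and 27.9 CPM in whole cells. The 3 groups formed separate steps, with pseudopodia highest, and replicate 2 was the highest library. The log2 fold change was 1.63 ± 0.205 (SE, adjusted p = 9.11e-05) over cell bodies and 3.34 ± 0.219 (SE, adjusted p = 5.78e-07) over whole cells, and cell bodies over whole cells gave 1.71 ± 0.206 (SE, adjusted p = 0.000135). USP46 had 15.6, 16.2 and 8.18 CPM in pseudopodia, 12.5, 16.5 and 17.6 CPM in cell bodies and 20.5, 20.2 and 19.9 CPM in whole cells. Its pseudopodia overlapped cell bodies and lay below whole cells, with -0.60 ± 0.235 (SE, adjusted p = 0.0445); this last call was lost without any of 7 of the 9 libraries (highest adjusted p = 0.108).

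USP32, a membrane-anchored enzyme that acts on the late endosomal GTPase RAB7, had 154, 158 and 114 CPM in pseudopodia, 53.6, 65.3 and 74.4 CPM in cell bodies and 73.9, 66.2 and 68.8 CPM in whole cells. Every pseudopodia library was above the others, while cell bodies and whole cells overlapped. Its log2 fold change over cell bodies was 1.14 ± 0.162 (SE, adjusted p = 0.000228). USP6, a hominoid gene made from parts of USP32 and TBC1D3, was near the detection limit with 0.347, 0.272 and 0.251 CPM in pseudopodia, 0.0514, 0.0664 and 0.114 CPM in cell bodies and 0.142, 0.146 and 0.258 CPM in whole cells. It passed against cell bodies (1.86 ± 0.477 (SE, adjusted p = 0.00963)), but reads from USP32 and USP6 may have been assigned to either, so it is uncertain.

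USP2, an enzyme that stabilises MDM2 and cyclin D1, had 11.1, 9.04 and 12.5 CPM in pseudopodia, 6.99, 6.06 and 4.30 CPM in cell bodies and 0.904, 0.802 and 1.001 CPM in whole cells. All 3 groups were apart. Pseudopodia were above cell bodies by 0.91 ± 0.206 (SE, adjusted p = 0.00482) on the log2 scale. Against whole cells the log2 fold change was 3.59 ± 0.231 (SE, adjusted p = 5.1e-07) in pseudopodia, the highest of the 47 members, and 2.68 ± 0.225 (SE, adjusted p = 1.18e-05) in cell bodies. USP10, the partner of the stress granule protein G3BP1, had 77.3, 82.1 and 45.7 CPM in pseudopodia, 55.98, 64.5 and 64.9 CPM in cell bodies and 38.9, 37.6 and 35.4 CPM in whole cells. Its 2 fractions overlapped and both lay above whole cells, with log2 fold changes of 0.87 ± 0.194 (SE, adjusted p = 0.00245) for pseudopodia and 0.73 ± 0.194 (SE, adjusted p = 0.0128) for cell bodies. The cell body call was lost without whole cell replicate 3 (adjusted p = 0.0509) and on both TPM scales (highest adjusted p = 0.0792).

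USP9X, a large X-linked enzyme that stabilises MCL1, had 298, 384 and 215 CPM in pseudopodia, 156, 227 and 194 CPM in cell bodies and 224, 208 and 224 CPM in whole cells. Pseudopodia replicate 3 lay inside the range of cell bodies, and the log2 fold change was 0.64 ± 0.201 (SE, adjusted p = 0.027). USP8, which removes ubiquitin from receptor tyrosine kinases on endosomes, behaved otherwise, with 4.84, 14.5 and 6.35 CPM in pseudopodia, 5.003, 15.3 and 5.000 CPM in cell bodies and 30.1, 27.7 and 28.8 CPM in whole cells. Its fractions overlapped (0.03 ± 0.505 (SE, adjusted p = 0.974)) and both were below whole cells, by -1.75 ± 0.515 (SE, adjusted p = 0.0155) and -1.77 ± 0.515 (SE, adjusted p = 0.024) on the log2 scale. In both fractions replicate 2 was the highest library. The pseudopodia call was lost without pseudopodia replicate 1 or 3 (highest adjusted p = 0.096), and the cell body call without any of 6 of the 9 libraries (0.0837).

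**Figure D3:**
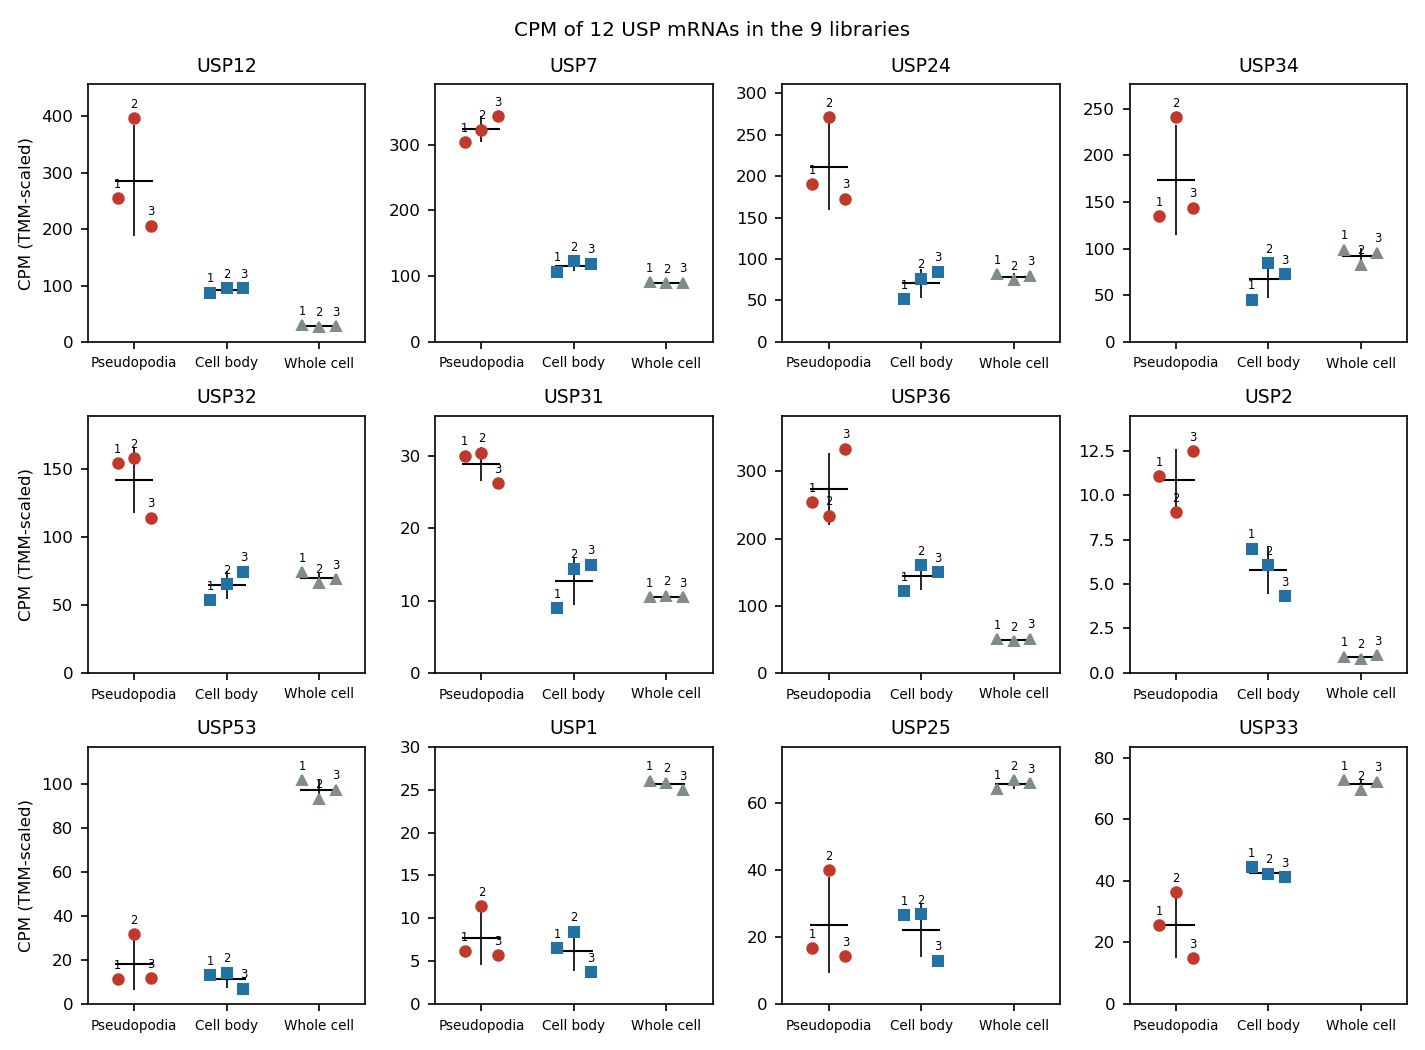
TMM-scaled CPM of 12 USP mRNAs by library, in the order pseudopodia, cell bodies, whole cells; points are libraries numbered by replicate, and black bars give the mean ± SD of 3 libraries. USP12, USP36 and USP2 step down over the 3 groups, USP7, USP24, USP34, USP32 and USP31 are highest in pseudopodia, and USP53, USP1, USP25 and USP33 are highest in whole cells.

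Of 8 tested histone and chromatin members, 3 were higher in pseudopodia than in cell bodies, where 18.6% of all tested genes were. Of the 3, only USP7 was called in every alternative. USP7, which removes ubiquitin from MDM2 and p53, had 304, 322 and 343 CPM in pseudopodia, 107, 122 and 119 CPM in cell bodies and 90.6, 89.6 and 89.7 CPM in whole cells. The pseudopodia libraries were close to each other and all above the rest. Its log2 fold change was 1.48 ± 0.113 (SE, adjusted p = 2.76e-06) over cell bodies and 1.84 ± 0.114 (SE, adjusted p = 4e-07) over whole cells, with the smallest standard error among the members at least 2-fold higher. USP7 in cell bodies exceeded whole cells by 0.37 ± 0.111 (SE, adjusted p = 0.0234), a call that was lost without any of 5 of the 9 libraries (highest adjusted p = 0.0829). USP22 had 231, 192 and 288 CPM in pseudopodia, 170.1, 256 and 245 CPM in cell bodies and 201, 154 and 201 CPM in whole cells. Its groups overlapped in all comparisons, with log2 fold changes of 0.08, adjusted p = 0.764 over cell bodies and 0.36, adjusted p = 0.133 over whole cells.

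USP49 and USP21, which act on histones H2B and H2A, were higher in pseudopodia than in cell bodies by 0.64 ± 0.177 (SE, adjusted p = 0.015) and 0.51 ± 0.171 (SE, adjusted p = 0.0343). USP49 had 2.82, 3.40 and 2.78 CPM in pseudopodia, 1.76, 2.07 and 1.95 CPM in cell bodies and 4.49, 3.51 and 4.003 CPM in whole cells, so both fractions lay below whole cells. Against whole cells the test was passed for cell bodies (-1.05, adjusted p = 0.00111) and missed for pseudopodia (-0.42, adjusted p = 0.0566). USP16, another H2A deubiquitinase, had 3.99, 19.3 and 3.82 CPM in pseudopodia, 6.07, 7.02 and 4.29 CPM in cell bodies and 21.6, 22.9 and 24.1 CPM in whole cells. Pseudopodia replicate 2 came near whole cells while replicates 1 and 3 did not. Cell bodies were below whole cells by -1.98 ± 0.575 (SE, adjusted p = 0.0239), which was lost without any of 6 of the 9 libraries (highest adjusted p = 0.0876), and pseudopodia gave -1.34 ± 0.562 (SE, adjusted p = 0.0651). USP27X and USP51, relatives of USP22, and the H2A enzyme USP3 did not pass between the fractions, with -0.37, -0.37 and 0.12. USP27X was higher in cell bodies than in whole cells (0.66, adjusted p = 0.0197), a call lost without cell body replicate 3 or whole cell replicate 1 or 2 (highest adjusted p = 0.0834).

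Among members grouped here under TGF-beta, Wnt and growth signalling, 3 of 5 tested were higher in pseudopodia than in cell bodies (18.6% of all tested genes). These were USP24, USP34 and USP31, the first 2 of which are among the largest enzymes of the family. The group was set with earlier results known, and no role of USP24 or USP31 in these pathways is given here. The count is therefore no result about the pathways. USP24 had 190.5, 271 and 173 CPM in pseudopodia, 51.3, 76.4 and 84.9 CPM in cell bodies and 81.8, 74.2 and 80.03 CPM in whole cells. Every pseudopodia library was above every other library, and the log2 fold change was 1.58 ± 0.211 (SE, adjusted p = 0.000148) over cell bodies and 1.43 ± 0.210 (SE, adjusted p = 0.000157) over whole cells. USP34, which acts on axin in Wnt signalling, had 135, 241 and 144 CPM in pseudopodia, 45.3, 84.7 and 72.7 CPM in cell bodies and 98.7, 82.996 and 95.8 CPM in whole cells. Pseudopodia were above both other groups, with replicate 2 highest, by 1.36 ± 0.270 (SE, adjusted p = 0.00307) over cell bodies and 0.91 ± 0.268 (SE, adjusted p = 0.0146) over whole cells. Its exons share 3263 bases with AHSA2P on the other strand, which had 20923 counts over the 9 libraries. Whether counting used strand is not given, so reads from the pair may have been mixed.

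USP31 had 30.02, 30.5 and 26.2 CPM in pseudopodia, 8.94, 14.4 and 14.96 CPM in cell bodies and 10.5, 10.7 and 10.4 CPM in whole cells. Pseudopodia were again above all other libraries, by 1.18 ± 0.187 (SE, adjusted p = 0.00049) over cell bodies. USP15, which acts on TGF-beta receptors and SMAD proteins, had 5.40, 16.4 and 4.28 CPM in pseudopodia, 15.3, 13.4 and 8.35 CPM in cell bodies and 29.2, 29.2 and 28.3 CPM in whole cells. Pseudopodia replicate 2 lay above the cell bodies and the others below them, and the difference between fractions did not pass (-0.50, adjusted p = 0.424). Without pseudopodia replicate 2 it passed as lower (-1.35, adjusted p = 0.00125), as it did with limma-voom (-0.93, adjusted p = 0.0159). Both fractions lay below whole cells, with -1.73 ± 0.465 (SE, adjusted p = 0.0101) for pseudopodia and -1.23 ± 0.458 (SE, adjusted p = 0.0612) for cell bodies. USP4, a relative of USP15, did not pass in any comparison, with -0.09, -0.16 and -0.07.

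The nucleolar enzyme USP36, which also stabilises MYC, had 254, 234 and 334 CPM in pseudopodia, 121, 160.2 and 149.9 CPM in cell bodies and 50.2, 47.1 and 51.2 CPM in whole cells. The groups formed 3 separate steps. Its log2 fold change was 0.93 ± 0.158 (SE, adjusted p = 0.000795) for pseudopodia over cell bodies, 2.47 ± 0.166 (SE, adjusted p = 6.63e-07) over whole cells and 1.54 ± 0.161 (SE, adjusted p = 5.13e-05) for cell bodies over whole cells. Its relative USP42 and USP39, a splicing factor with a USP fold that lacks protease activity, did not pass between the fractions (0.22 and 0.16). Both passed in pseudopodia against whole cells, with 0.53, adjusted p = 0.00605 for USP42 and 0.41, adjusted p = 0.0239 for USP39. The USP39 call was lost without any 1 of the whole-cell libraries (highest adjusted p = 0.0671).

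Of the 8 members linked to DNA repair and replication, 0 passed between pseudopodia and cell bodies in edgeR. Of all tested genes, 18.6% were higher there and 19.9% lower. An unadjusted p under 0.05 was reached by 0 of these 8 members. DESeq2 also called 0, limma-voom called 1, USP45, as lower, and the fit with the GC and length correction called USP1 and USP37 as higher (0.75, adjusted p = 0.0337 and 0.87, adjusted p = 0.0121). Without pseudopodia replicate 2, edgeR called USP45 lower too (-1.29, adjusted p = 0.00254). Against whole cells 5 were lower and 1 higher in pseudopodia, and 4 were lower and 1 higher in cell bodies. Of all tested genes, 33.1% were lower and 27.9% higher in pseudopodia, and 20.5% and 18.1% in cell bodies. USP1, which with WDR48 takes ubiquitin off FANCD2 and PCNA, had 6.12, 11.4 and 5.71 CPM in pseudopodia, 6.49, 8.43 and 3.68 CPM in cell bodies and 26.1, 25.8 and 24.97 CPM in whole cells. Both fractions lay far below whole cells, by -1.72 ± 0.330 (SE, adjusted p = 0.00139) in pseudopodia and -2.05 ± 0.334 (SE, adjusted p = 0.00142) in cell bodies. USP11, an enzyme that acts on BRCA2, was the higher one, with 99.2, 97.96 and 139 CPM in pseudopodia, 106, 121 and 106 CPM in cell bodies and 65.8, 69.4 and 65.5 CPM in whole cells. Its fractions overlapped and both were above whole cells (0.74, adjusted p = 0.00129 and 0.73, adjusted p = 0.00342). USP43 passed at levels under 1 CPM (-2.07, adjusted p = 0.00123 and -1.51, adjusted p = 0.0114), and its cell body call was lost without whole cell replicate 1 (highest adjusted p = 0.06). USP48, USP28, USP37, USP45 and USP47 ranged from -1.33 to -0.18 in pseudopodia and from -1.02 to -0.60 in cell bodies against whole cells. Of these, USP45, USP28 and USP48 passed in pseudopodia and USP37 and USP48 in cell bodies. With 1 library left out, the pseudopodia calls of USP45 and USP28 were lost in 3 and 2 of 9 cases (highest adjusted p = 0.0712 and 0.0612), and the cell body calls of USP37 and USP48 in 5 and 3 cases (0.102 and 0.0827).

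At the mitochondrion and the endoplasmic reticulum, related locations gave different values. USP35, found at mitochondria, had 23.2, 21.4 and 30.03 CPM in pseudopodia, 13.9, 15.5 and 15.001 CPM in cell bodies and 15.9, 16.1 and 15.03 CPM in whole cells. Pseudopodia were above both other groups, by 0.75 ± 0.150 (SE, adjusted p = 0.00228) over cell bodies and 0.67 ± 0.149 (SE, adjusted p = 0.00257) over whole cells. USP30, which opposes Parkin on the outer mitochondrial membrane, had 11.7, 10.5 and 13.001 CPM in pseudopodia, 14.3, 15.7 and 15.1 CPM in cell bodies and 20.9, 18.999 and 18.9 CPM in whole cells. These ran the other way, with pseudopodia below both other groups. The log2 fold change was -0.74 ± 0.134 (SE, adjusted p = 0.000647) against whole cells and missed the threshold against cell bodies (-0.36 ± 0.134 (SE, adjusted p = 0.054)). Cell bodies were below whole cells (-0.38, adjusted p = 0.0422), a call lost without any of 7 of the 9 libraries (highest adjusted p = 0.192).

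USP25, linked to degradation of proteins from the endoplasmic reticulum, had 16.6, 40.03 and 14.3 CPM in pseudopodia, 26.6, 26.9 and 12.9 CPM in cell bodies and 64.2, 66.9 and 66.1 CPM in whole cells. Its fractions overlapped and lay below whole cells, with -1.47 ± 0.406 (SE, adjusted p = 0.0113) for pseudopodia and -1.57 ± 0.408 (SE, adjusted p = 0.0147) for cell bodies, and the pseudopodia call was lost without pseudopodia replicate 3 (highest adjusted p = 0.066). USP19, anchored in the endoplasmic reticulum membrane, did not pass in any comparison (0.23, 0.07 and -0.15). Of the 3 members that act on free chains or at the proteasome, USP13 was higher in pseudopodia than in cell bodies (0.49, adjusted p = 0.0107). USP5 did not pass (-0.32, adjusted p = 0.109), but it passed as lower in 7 of the 20 alternatives, among them the fit without pseudopodia replicate 3 (-0.49, adjusted p = 0.00147), limma-voom (-0.44, adjusted p = 0.00017) and log2(TPM + 1) (-0.61, adjusted p = 0.00288). USP14, the proteasome-bound enzyme, had 46.9, 56.5 and 21.97 CPM in pseudopodia, 63.6, 62.6 and 57.1 CPM in cell bodies and 53.8, 53.8 and 54.9 CPM in whole cells. Pseudopodia were below cell bodies in all 3 libraries, with replicate 3 lowest, and the test was not passed (-0.55 ± 0.274 (SE, adjusted p = 0.145)).

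USP20 and USP33, paired relatives that bind the VHL protein and act on beta-adrenergic receptors, moved in opposite directions. USP20 had 53.6, 49.02 and 71.3 CPM in pseudopodia, 32.999, 35.6 and 32.8 CPM in cell bodies and 28.7, 29.6 and 27.2 CPM in whole cells. USP33 had 25.7, 36.3 and 14.8 CPM in pseudopodia, 44.4, 42.3 and 41.1 CPM in cell bodies and 72.7, 69.5 and 72.2 CPM in whole cells. Pseudopodia were above cell bodies in every library for USP20 and below them in every library for USP33. The log2 fold change was 0.78 ± 0.149 (SE, adjusted p = 0.00171) for USP20 and -0.73 ± 0.253 (SE, adjusted p = 0.0427) for USP33. Against whole cells, USP20 was higher in pseudopodia by 1.03 ± 0.150 (SE, adjusted p = 0.000146) and USP33 lower by -1.48 ± 0.257 (SE, adjusted p = 0.000648). Cell bodies were also below whole cells for USP33 (-0.75, adjusted p = 0.0397), though not without any of 7 of the 9 libraries (highest adjusted p = 0.113). The transcripts differ in GC content, at 60.3% for USP20 and 39.8% for USP33.

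USP53 and USP54, long held to be inactive as proteases, also differed. USP53, a protein of tight junctions, had 11.3, 31.8 and 11.6 CPM in pseudopodia, 13.1, 14.2 and 6.89 CPM in cell bodies and 102, 93.4 and 97.5 CPM in whole cells. Every whole-cell library was far above every library of either fraction, and pseudopodia replicate 2 was the highest of the fractions. The log2 fold change was -2.42 ± 0.427 (SE, adjusted p = 0.00101) for pseudopodia and -3.10 ± 0.440 (SE, adjusted p = 0.000802) for cell bodies. Between the fractions it was 0.68 ± 0.411 (SE, adjusted p = 0.223). USP54 did not pass in any comparison (0.45, 0.18 and -0.27). USP50, likewise without protease activity, was at 0.144, 0.109 and 0.0386 CPM in pseudopodia, 0.0685, 0.0332 and 0.114 CPM in cell bodies and 0.915, 0.729 and 1.05 CPM in whole cells, and passed against whole cells with -3.13 and -3.58. It shares 545 exon bases with USP8 on the other strand, so its reads may belong to USP8 and its calls are uncertain.

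USP18, which removes the ubiquitin-like protein ISG15 after interferon, stayed within a narrow range, with 5.55, 5.87 and 5.52 CPM in pseudopodia, 6.36, 6.24 and 6.11 CPM in cell bodies and 5.41, 5.51 and 5.71 CPM in whole cells. It did not pass in any of the 3 comparisons (-0.14, 0.03 and 0.17). USP40 was higher in pseudopodia than in both cell bodies (0.63, adjusted p = 0.00155) and whole cells (0.46, adjusted p = 0.00557). USP38 had 51.1, 65.3 and 27.1 CPM in pseudopodia, 52.2, 59.1 and 64.2 CPM in cell bodies and 24.4, 25.98 and 25.2 CPM in whole cells. Its fractions overlapped and lay above whole cells, with 0.92 ± 0.259 (SE, adjusted p = 0.0108) for pseudopodia and 1.22 ± 0.261 (SE, adjusted p = 0.00523) for cell bodies.

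Ratios of related members within a library do not depend on how libraries are scaled. The TPM ratio of USP12 to USP46 was 28.6 to 44.02 in pseudopodia, 9.43 to 12.1 in cell bodies and 2.35 to 2.53 in whole cells. The ratio of USP20 to USP33 was 1.69 to 6.03 in pseudopodia, 0.932 to 1.06 in cell bodies and 0.472 to 0.535 in whole cells. Both ratios separated all 3 groups, with USP12 furthest ahead of USP46 in pseudopodia. USP20 exceeded USP33 in every pseudopodia library, and USP33 exceeded USP20 in every whole-cell library. The ratio of USP36 to USP42 was 7.79 to 13.1 in pseudopodia, 5.29 to 6.17 in cell bodies and 2.39 to 2.49 in whole cells, again with 3 separate ranges. USP31 to USP43 was 43.6 to 117 in pseudopodia, 15.5 to 40.2 in cell bodies and 5.28 to 8.70 in whole cells. These groups too were apart, although USP43 was under 1 TPM in every library. USP2 to USP21 was 0.402 to 0.478 in pseudopodia, 0.265 to 0.374 in cell bodies and 0.0327 to 0.0416 in whole cells, with 3 separate ranges in which USP2 was the rarer mRNA. USP5 to USP13 also had 3 separate ranges, but was lowest in pseudopodia. That ratio was 10.8 to 17.0 in pseudopodia, 22.8 to 24.5 in cell bodies and 17.3 to 17.6 in whole cells.

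Other pairs separated whole cells but not the fractions, and 2 of them are given with their values. The others were USP4 to USP15, USP4 to USP11, USP11 to USP15 and USP25 to USP28. The ratio of USP7 to USP47 was 6.57 to 16.4 in pseudopodia, 4.08 to 9.96 in cell bodies and 2.56 to 2.72 in whole cells, and the fractions overlapped through pseudopodia replicate 2 and cell body replicate 3. The ratio of USP53 to USP54 was 1.22 to 3.57 in pseudopodia, 0.928 to 2.84 in cell bodies and 10.6 to 13.8 in whole cells, highest in whole cells. For a further pair, USP22 exceeded USP27X in each library, with ratios of 18.3 to 36.3 in pseudopodia, 17.1 to 23.5 in cell bodies and 21.2 to 30.96 in whole cells, and these ranges overlapped. The ranges of USP22 to USP51 overlapped as well. Pseudopodia and whole cells overlapped for USP35 to USP38, at 0.598 to 2.03 and 1.09 to 1.19. They also did for USP16 to USP45, at 1.31 to 2.84 and 2.14 to 2.64, and for USP6 to USP32. How often other pairs of genes separate the groups was not tested.

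**Figure D4:**
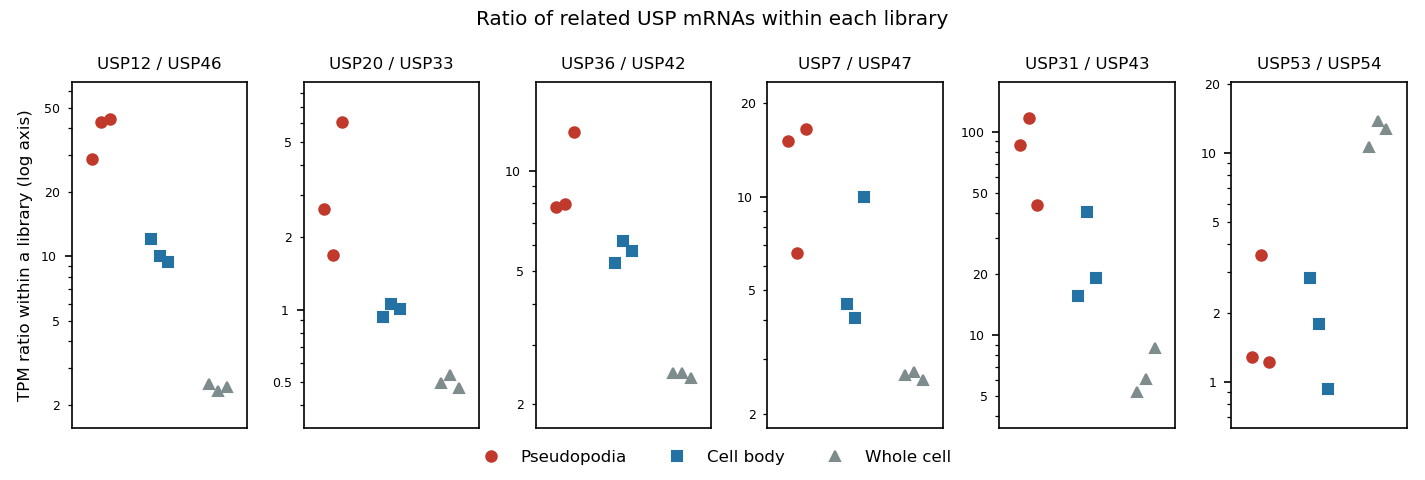
Ratio of the TPM of 6 pairs of related USP mRNAs within each library (log axis); points are single libraries, with pseudopodia left of cell bodies and those left of whole cells. The USP12 to USP46 ratio lies between 28.6 and 44.0 in pseudopodia and between 2.35 and 2.53 in whole cells, while the USP53 to USP54 ratio is highest in whole cells.

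For reference, USP12 (ENSG00000152484) lies on chromosome 13 at 27066142 to 27171896, minus strand of GRCh38. USP7 (ENSG00000187555) lies on chromosome 16 at 8892094 to 8964514, minus strand, and USP24 (ENSG00000162402) lies on chromosome 1 at 55066359 to 55215113, minus strand. USP36 (ENSG00000055483) lies on chromosome 17 at 78787381 to 78841441, minus strand, and USP2 (ENSG00000036672) lies on chromosome 11 at 119355215 to 119381726, minus strand. USP33 (ENSG00000077254) lies on chromosome 1 at 77695987 to 77759852, minus strand, and USP53 (ENSG00000145390) lies on chromosome 4 at 119212587 to 119295517, plus strand.

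The members called higher in pseudopodia over cell bodies had a median exon length of 8838 bases, against 6323 bases for the 30 members not called and 4103 bases for all tested genes with values. Their median GC content was 45.7%, against 43.5% for the members not called and 48.2% for all. Across the 47 members, the log2 fold change of pseudopodia over cell bodies correlated with log exon length at r = 0.28 and with GC content at r = 0.06. Against whole cells, r with GC content was 0.37 for pseudopodia and 0.41 for cell bodies. Over all tested genes with values, these 2 were 0.31 and 0.26. For pseudopodia over cell bodies, r over all such genes was 0.09 with log exon length and 0.19 with GC content. The 13 members lower in pseudopodia than in whole cells had a median GC content of 40.6%, and the 16 higher ones 47.6%. The part of GC content in these differences was not tested beyond the corrected fit. For pseudopodia over whole cells, that fit called 21 members higher and 12 lower. Over all 20 alternatives of that comparison, the log2 fold change ranged from -3.08 to -1.21 for USP53 and from -2.24 to -0.97 for USP1. It ranged from -2.57 to -0.82 for USP15 and from 2.78 to 4.34 for USP12. With only 1 library left out, these ranges were narrower, at -3.08 to -2.16, -2.11 to -1.54, -2.57 to -1.39 and 3.04 to 3.54.

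The promoters of USP12, USP36 and USP2 are shown because these 3 mRNAs were at least 2-fold higher than whole cells in both fractions. The sequences run from 250 bases before to 50 bases after a RefSeq start on GRCh38.p14 and all lie on the minus strand. Motifs were searched on both strands, and capitals mark a match to any of them. They were the cAMP response element (TGACGTCA), its half-site (TGACG), which lies within the full element, the E-box (CACGTG) and the AP-1 site (TGANTCA). The windows are chr13:27171762-27172061, chr17:78840765-78841064 and, at a start inside the USP2 gene, chr11:119364159-119364458.
USP12: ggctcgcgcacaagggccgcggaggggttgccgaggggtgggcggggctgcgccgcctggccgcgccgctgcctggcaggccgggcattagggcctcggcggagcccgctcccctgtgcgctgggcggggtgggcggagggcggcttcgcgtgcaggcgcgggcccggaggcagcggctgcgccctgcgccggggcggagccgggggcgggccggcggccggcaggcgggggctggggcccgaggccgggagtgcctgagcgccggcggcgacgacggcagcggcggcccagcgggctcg
USP36: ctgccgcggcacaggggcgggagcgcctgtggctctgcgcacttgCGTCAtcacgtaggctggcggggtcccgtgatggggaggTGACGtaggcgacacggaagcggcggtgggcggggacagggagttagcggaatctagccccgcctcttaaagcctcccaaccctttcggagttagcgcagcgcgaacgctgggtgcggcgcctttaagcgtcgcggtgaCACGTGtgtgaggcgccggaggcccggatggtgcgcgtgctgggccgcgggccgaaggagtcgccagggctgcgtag
USP2: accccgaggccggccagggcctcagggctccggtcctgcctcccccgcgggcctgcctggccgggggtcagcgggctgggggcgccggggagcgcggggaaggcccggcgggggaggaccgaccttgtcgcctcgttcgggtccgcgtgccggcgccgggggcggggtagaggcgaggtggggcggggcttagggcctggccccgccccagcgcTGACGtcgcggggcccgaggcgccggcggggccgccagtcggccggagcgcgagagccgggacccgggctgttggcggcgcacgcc
The USP36 window holds the half-site at base 85, its reverse complement at base 46 and an E-box at base 224. The USP2 window holds the half-site at base 215, and none of these motifs was found in the USP12 window. A further USP36 window at another start held none of them. The RefSeq table has 51 windows for 38 of the members, and 17 of these windows held the half-site, against 24.6% of all 35116 promoters in the RefSeq table. The E-box was in 4 USP windows, against 7.26% of all. The full element and the AP-1 site were in 0 USP windows, against 1.85% and 7.71% of all. A match is a match of letters only, and windows of 1 gene can overlap.

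Of 10 cofactors, 3 passed as higher in pseudopodia against cell bodies and 2 as lower, against 18.6% and 19.9% of all tested genes, with a median log2 fold change of -0.02. WDR20, the activator of USP12 and USP46, averaged 14.9 ± 2.84 CPM in pseudopodia, 26.7 ± 2.69 CPM in cell bodies and 17.04 ± 0.528 CPM in whole cells (SD, n = 3 each), so it was lower in pseudopodia than in cell bodies (-0.84 ± 0.159 (SE, adjusted p = 0.00167)), the opposite of USP12. WDR48 did not pass in any comparison (0.05, -0.16 and -0.21). ATXN7 and ATXN7L3, subunits that hold USP22 in SAGA, were higher in pseudopodia (1.14 ± 0.292 (SE, adjusted p = 0.0119) and 0.83 ± 0.156 (SE, adjusted p = 0.00154)), while ENY2 did not pass (-0.50). Of the endosomal sorting proteins around USP8, STAM was lower in pseudopodia (-0.74, adjusted p = 0.0117) and HGS was higher (0.40, adjusted p = 0.0397). G3BP1, the partner of USP10, did not pass between the fractions (0.08) and was higher than whole cells in both, with 0.60, adjusted p = 0.00756 and 0.51, adjusted p = 0.0267. GMPS, the partner of USP7, did not pass in any comparison (-0.08, -0.05 and 0.03).

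In the rest of the ubiquitin system, counts between pseudopodia and cell bodies are given by class, where 18.6% of all tested genes were higher and 19.9% lower. Among HECT ligases, a class of E3 enzymes, 11 of 27 tested were higher and 1 lower, with a median log2 fold change of 0.45. The ligase HUWE1 averaged 950.1 ± 158 CPM in pseudopodia, 250.1 ± 65.95 CPM in cell bodies and 305 ± 20.1 CPM in whole cells (SD, n = 3 each), a difference of 1.93 ± 0.201 (SE, adjusted p = 2.33e-05) over cell bodies on the log2 scale. Of 34 ubiquitin-conjugating E2 genes, 12 were higher and 3 lower. Of 14 tested OTU deubiquitinases, 3 were higher and 3 lower, with OTUD7B at 2.26 ± 0.190 (SE, adjusted p = 5e-06) and YOD1 at -1.75 ± 0.302 (SE, adjusted p = 0.000958). Each of the smaller classes had 1 gene that passed, as higher: MPND of 7 JAMM metalloproteases, MINDY1 of 5 MINDY and ZUFSP enzymes, BAP1 of 4 UCH enzymes and JOSD2 of 3 tested Josephins. CYLD, which has a USP fold but is no member by symbol, was higher (0.93, adjusted p = 0.000699), and its relative by fold USPL1 was lower (-0.93, adjusted p = 0.0475).

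Of ubiquitin's own genes, RPS27A was higher in pseudopodia than in cell bodies (0.38 ± 0.130 (SE, adjusted p = 0.039)). UBB did not pass between the fractions (-0.30, adjusted p = 0.13). The E1 enzyme UBA1 was lower in pseudopodia (-0.47, adjusted p = 0.0305).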

How the data were processed

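The authors deposited whole-number read counts per gene, made with featureCounts per the labels, and TPM values per library. GRCh38 and DESeq2 are named per the submitters' processing notes. The aligner, annotation and strand setting, with all versions, were not given in the sources used here. Counts and TPM differed by 1 length per gene and 1 constant per library. One blank line was left out, and 62709 genes remained.

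Counts of all 9 libraries entered 1 fit in edgeR 4.0.16 (R 4.3.3): TMM factors, filterByExpr with a minimum count of 10, robust quasi-likelihood tests and Benjamini-Hochberg adjustment over 19426 genes. A call is an adjusted p under 0.05. Standard errors come from the test statistic, and the fit was checked on simulated counts. Since pseudopodia varied most and whole cells least, 1 shared spread may give p-values that are too small in both comparisons with pseudopodia. For cell bodies against whole cells they may be too large. Correlations across genes carry no test.

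Members and gene lists were chosen with earlier results of these data known. Chosen for description were the called members with the 6 highest and 6 lowest log2 fold changes per comparison, the 5 with the highest TPM, a fixed list (USP1, USP7, USP8, USP9X, USP14, USP15, USP18, USP22, USP30) and members of related pairs. Values per library are given for them except USP5, which has group means, USP43 and some members of pairs. Positions, exon lengths and GC content came from GENCODE 29 and promoters from RefSeq (GRCh38.p14). The 20 alternatives were DESeq2 size factors, no low-count filter, 5 CPM in 3 libraries, limma-voom with sample weights, DESeq2 1.42.0, only the 6 libraries compared, limma 3.58.1 on TPM with a pseudocount of 1 or of 0.1 before taking log2, a replicate block, a GC and length correction, both together, and each of the 9 libraries left out. Leaving out a library leaves 2 in its group. Some genes of the ubiquitin system are not reported here.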

Additional observations from a re-analysis of the deposited data

How the results depend on the processing

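Of the members called, 11 of 16 higher and 0 of 1 lower in pseudopodia over cell bodies passed in each of the 20 alternatives in which they were tested. For pseudopodia over whole cells these were 8 of 16 and 7 of 13, and for cell bodies over whole cells 5 of 8 and 4 of 12. Leaving out 1 library at a time gave 14 to 17 higher and 0 to 5 lower members in pseudopodia over cell bodies, 15 to 19 and 10 to 16 over whole cells, and 6 to 12 and 5 to 16 in cell bodies over whole cells. The lower count of pseudopodia over cell bodies was 0 with no low-count filter or only the 6 libraries compared, 2 with 5 CPM in 3 libraries or with the GC and length correction (also with the replicate block), and 7 with limma-voom or on log2(TPM + 1) and log2(TPM + 0.1). In pseudopodia over whole cells both TPM settings gave 8 higher, with 22 lower for log2(TPM + 1) and 21 for log2(TPM + 0.1). In cell bodies over whole cells the higher count was 14 with limma-voom and 5 with both TPM settings. Causes were not tested.

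The labels give no pairing: deviations of same-numbered libraries from their group means correlated between -0.081 and 0.090, and samples did not each correlate best with their own number. With the replicate block the counts were 15 higher and 1 lower, 16 and 13, and 7 and 12 in the 3 comparisons.

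Values of uncalled members near 0 changed sign in some alternatives. In pseudopodia over cell bodies, USP1 ranged from -0.066 to 0.61 with 1 library left out, USP8 from -0.60 to 0.78, USP11 from -0.17 to 0.10 and USP22 from -0.079 to 0.21. USP8 also gave -0.65 with limma-voom, -0.13 and -0.20 with the TPM settings, -0.0080 with the 6 libraries compared and -0.011 with the GC and length correction. USP11 gave -0.037 with 5 CPM in 3 libraries, -0.17 with limma-voom, -0.28 and -0.29 with the TPM settings, -0.046 with the 6 libraries, and -0.055 with the GC and length correction, also with the replicate block. USP22 gave -0.062 with limma-voom, -0.20 with both TPM settings, -0.020 with the GC and length correction and -0.028 with the replicate block added.

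In pseudopodia over whole cells, USP5 gave 0.020 with no low-count filter and ranged from -0.23 to 0.057 with 1 library left out. USP14 gave 0.62 with the GC and length correction and 0.61 with the replicate block added, both past the threshold (adjusted p = 0.000587 and 0.00126), against -0.37 without a correction. USP18 gave -0.11 with 5 CPM in 3 libraries, -0.37 and -0.43 with the TPM settings (adjusted p = 0.0117 and 0.0131), -0.045 with the GC and length correction and -0.048 with the replicate block added. With the TPM settings USP22 gave -0.11 in both and USP9X -0.048 and -0.050. In cell bodies over whole cells, the TPM settings gave -0.0033 and -0.0034 for USP14 and -0.0053 and -0.0061 for USP18. USP9X gave 0.38 with the GC and length correction, with and without the replicate block (adjusted p = 0.0114 and 0.00354).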

Other observations

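Several RNAs named after USP genes are no family members and do not encode the enzyme. USP46-DT, a transcript that starts close to USP46 and runs the other way, had 19.1, 19.96 and 14.1 CPM in pseudopodia, 1.49, 1.24 and 1.72 CPM in cell bodies and 2.41, 2.57 and 2.49 CPM in whole cells. Every pseudopodia library was above every other library. Its log2 fold change was 3.57 ± 0.199 (SE, adjusted p = 3.62e-07) over cell bodies and 2.84 ± 0.191 (SE, adjusted p = 6.66e-07) over whole cells, and it was called higher in pseudopodia in all 20 alternatives of each comparison, with log2 fold changes of 3.08 to 3.71 over cell bodies. USP46 itself had -0.22 over cell bodies. USP46-DT (ENSG00000248866) lies on chromosome 4 at 52659406 to 52661668 of GRCh38, plus strand.

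USP32P1, a partial copy of USP32, was opposite to its parent, with 1, 4 and 2 counts in pseudopodia, 23, 60 and 42 counts in cell bodies and 338, 259 and 244 counts in whole cells. USP32 itself was highest in pseudopodia. Reads from near-identical copies may have been assigned to either gene, so the USP32P1 values are uncertain. USP3-AS1, an antisense RNA of USP3, had 2, 4 and 0 counts in pseudopodia, 6, 8 and 16 counts in cell bodies and 70, 34 and 37 counts in whole cells, and pseudopodia over whole cells gave -4.27 ± 0.586 (SE, adjusted p = 9.34e-05) on the log2 scale. It shares 1760 exon bases with USP3, and whether counting used strand is not given. These RNAs were chosen after their values had been seen.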
